A study of Homo sapiens with 16 samples.

Results

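The genes described here are 40 that carry calcium signals: channels that release calcium from the endoplasmic reticulum, calcium pumps, the sensors and pores of store-operated entry, subunits of voltage-gated channels, TRP channels with the mitochondrial uniporter, calmodulins with their kinases, phospholipases C, calpains and the estrogen-responsive receptor GPER1. They were taken by their symbols from the gene FPKM table, which lists 63501 different identifiers, and all 40 were found. Their counts were joined by identifier from the counts of 63677 genes. Symbols CAPN5 and ORAI1 each had a second identifier without a single count in any library, and the identifier with counts was used. MiaPaCa2 and PANC1, the cells measured, are established lines grown from human pancreatic ductal adenocarcinomas. Each line was left untreated (control), given 40 nM gemcitabine, given 50 µM genistein or given both drugs (co-treatment), in every case for 24 hours, with 2 biological replicates per group and 16 libraries in all. Gemcitabine is a nucleoside analogue that blocks DNA synthesis, and genistein is a soy isoflavone that inhibits tyrosine kinases and binds estrogen receptors. A line is a single tumour's descendant grown in culture, so differences between the lines are differences between 2 tumours' cells and not between kinds of tumour.

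Cells keep cytosolic calcium low by pumping it into the endoplasmic reticulum with SERCA pumps (ATP2A genes), into the Golgi with ATP2C1 and out of the cell with PMCA pumps (ATP2B genes). Receptors and growth factor kinases switch on phospholipases C, which cut a membrane lipid into diacylglycerol and inositol trisphosphate, and the latter opens the ITPR channels of the reticulum. Emptied stores are sensed by STIM proteins, which open ORAI pores in the plasma membrane, and the calcium that enters acts through calmodulin, its kinases and the calpain proteases.

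The libraries held between 12943482 and 31991860 reads assigned to genes. Both lines carried the keratins KRT8, KRT18 and KRT19, with KRT8 at 369 FPKM or more in every library, and the mesenchymal gene VIM at 1398 FPKM or more. The ductal keratin KRT7 stayed between 0.170 and 1.70 FPKM in MiaPaCa2, at 9 counts or fewer, and between 3.95 and 21.1 in PANC1. EPCAM and CDH1, which define epithelial cells, were at 0 and at 2 counts or fewer in MiaPaCa2, and reached 443 and 634 counts in PANC1. Among markers of acinar, endocrine, fibroblast, endothelial and immune cells, INS, PRSS1, PECAM1 and DCN had no counts, PTPRC had 1 count at most, CDH5 reached 1.72 FPKM in MiaPaCa2 and PDGFRB 4.77 FPKM in PANC1. The immune marker CD68 stood higher, at 14.2 to 37.6 FPKM in MiaPaCa2 and up to 221 FPKM in PANC1, although no library held more than 4 and 17 of its counts. Replicates differed beyond counting noise in all 8 groups, most in the PANC1 controls, whose chi-square per degree of freedom was 32. GC content also separated them: set against the other PANC1 libraries, the log2 level of a gene changed by 0.29 per 10 points of exon GC in replicate 1 of the PANC1 controls and by -0.07 in replicate 2. In MiaPaCa2 that slope was -0.22 and -0.13 in the controls and 0.14 and 0.06 with gemcitabine.

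Levels of different genes can be set side by side as FPKM, which accounts for transcript length. In the untreated cells of both lines the calmodulin gene CALM2 was the most abundant of the 40, at 764 ± 30.5 FPKM in MiaPaCa2 and 692 ± 130 in PANC1 (SD, n = 2 here and below), followed by CALM3 at 366 ± 3.43 and 280 ± 34.1. CAPN2, the large subunit of m-calpain, came next in MiaPaCa2 at 218 ± 3.82 FPKM, while in PANC1 it stood at 159 ± 2.62 beside ATP2A2, the housekeeping SERCA pump, at 167 ± 2.88 and CAPN1 at 153 ± 28.6, 3 levels that lay within the spread of CAPN1. Among the release channels of the list, all ITPR genes, ITPR3 was the most abundant in both lines, at 35.1 ± 0.502 FPKM in MiaPaCa2 and 30.1 ± 2.91 in PANC1. ITPR1 had 3.87 ± 1.17 and 4.31 ± 0.494 FPKM and ITPR2 2.93 ± 0.108 and 3.03 ± 1.31. RYR1, a release channel outside the list, had 91.7 and 70.0 FPKM in the PANC1 controls. The mitochondrial uniporter pore MCU had 42.2 ± 1.72 and 41.8 ± 1.16 FPKM. At the other end, the cardiac L-type subunit CACNA1C had 2 counts or fewer in each control library and passed the filter on low counts in neither line, so it was not tested in the comparisons below. The map of levels groups the genes by what they do.

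**Figure D1:**
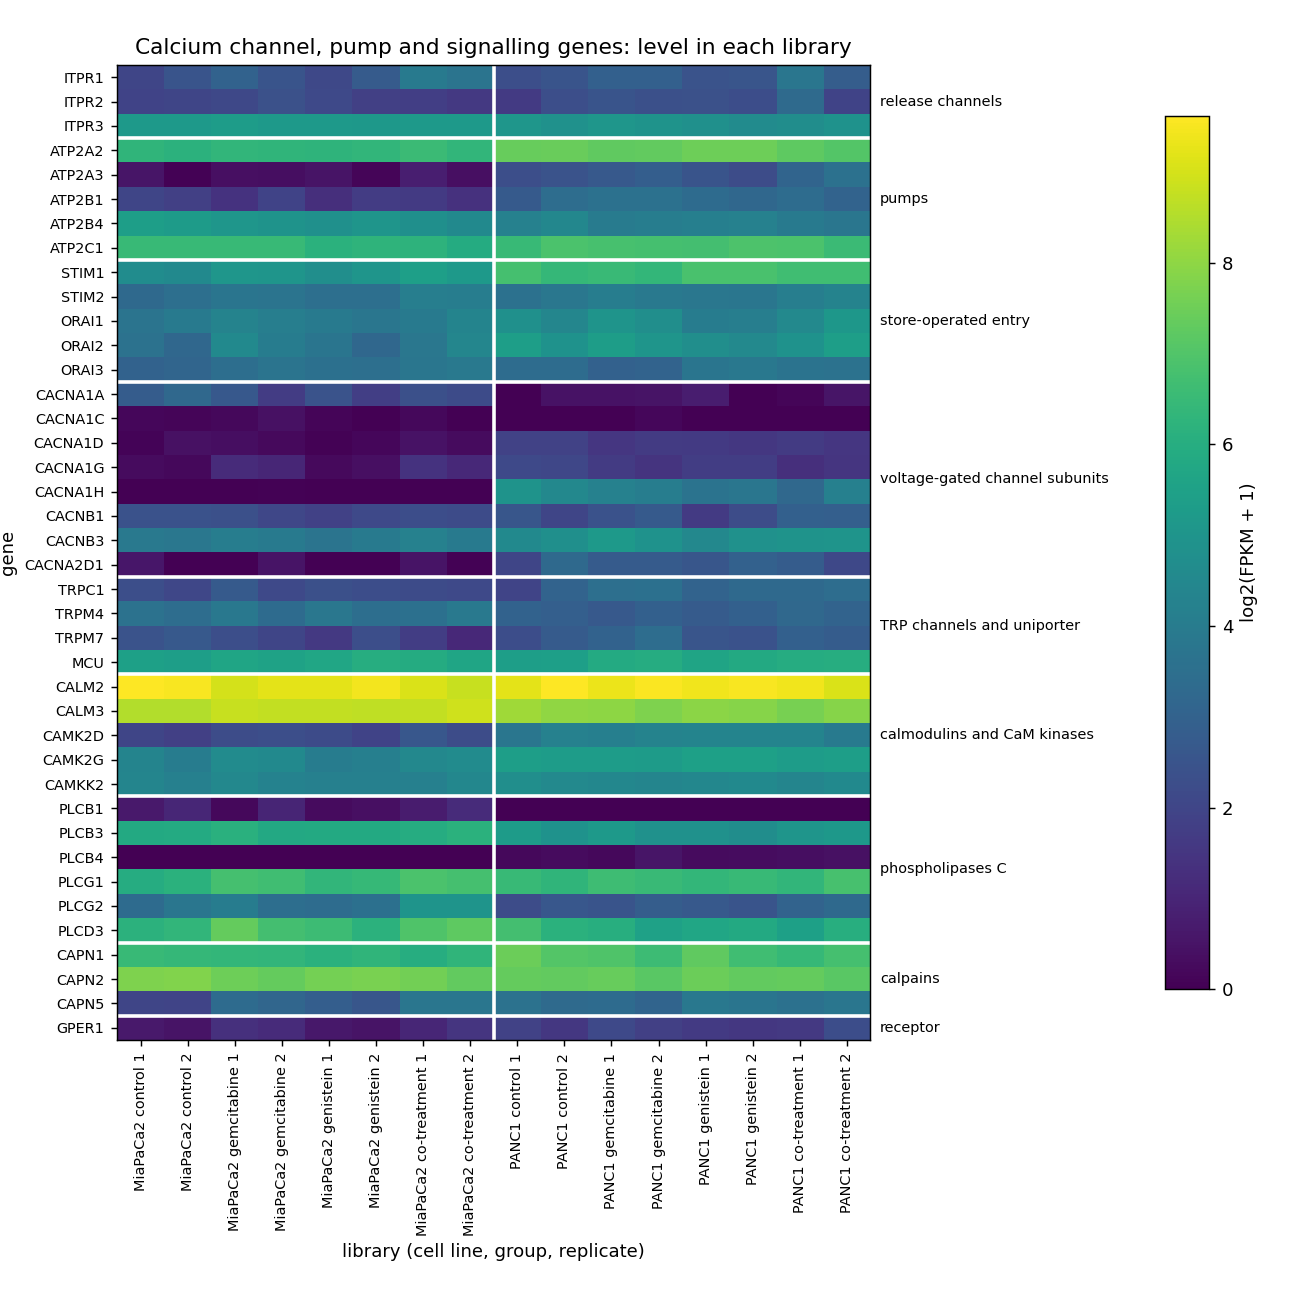
Level of each of the 40 genes (rows, grouped by role) in each of the 16 libraries (columns), as log2(FPKM + 1). CALM2 and CALM3 are the brightest rows in both lines, and CACNA1H, ATP2A3, CACNA1D and CACNA2D1 are dark in the 8 MiaPaCa2 libraries and lit in the 8 PANC1 libraries.

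The first question is which of these genes set the untreated lines apart. To be called, a gene needed a Benjamini-Hochberg adjusted p of 0.05 or less over all genes in the limma-voom test, a log2 difference of 0.4 or more in either direction, and more than 1 FPKM on average in either line. Of the 39 genes that could be tested, 23 were called, 18 higher in PANC1 and 5 lower. Of all 17863 genes tested 52.2% were called (27.9% higher and 24.3% lower in PANC1), beside 59.0% of the 39. The median log2 difference of the 39 was 0.37, against 0.06 over all genes tested. After a correction for GC content 25 were called, 15 higher and 10 lower, against 57.7% of all genes. Values per library are given as CPM, counts scaled to a common library size with TMM factors, which compare libraries within a gene but not genes with each other.

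Voltage-gated channel subunits gave the widest gaps between the lines: 5 of the 7 tested were called higher in PANC1 and 1 lower. CACNA1H (ENSG00000196557, GRCh37 chromosome 16, 1203106 to 1271771), the pore of a T-type channel that opens at small depolarizations, had 3 and 2 counts in the MiaPaCa2 controls and 4384 and 4901 in the PANC1 controls. Against a floor of 3 counts per library that is at least 905-fold higher in PANC1. No MiaPaCa2 library held more than 4 of its counts, while the PANC1 libraries measured 219.8 and 153.3 CPM in the controls, 113.2 and 87.6 with gemcitabine, 92.3 and 86.9 with genistein and 57.7 and 104.5 with co-treatment. CACNA2D1, an auxiliary subunit that carries pores to the membrane and binds gabapentin, had 5 and 2 counts in the MiaPaCa2 controls and 234 and 716 in the PANC1 controls (log2 difference 6.02, SE 0.77, adjusted p = 1.3e-05). Its other MiaPaCa2 libraries held 0 to 7 counts, and in PANC1 it measured 11.7 and 22.4 CPM in the controls, 17.9 and 20.7 with gemcitabine, 15.1 and 13 with genistein and 12.8 and 7.85 with co-treatment. Both genes were thus all but silent in MiaPaCa2 whatever the treatment.

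CACNA1D, an L-type pore, was higher in untreated PANC1 by 4.44 on the log2 scale (SE 0.26, adjusted p = 8.0e-09), CACNA1G, another T-type pore, by 3.55 (SE 0.33, adjusted p = 6.2e-07) and CACNB3, a beta subunit inside the membrane, by 0.90 (SE 0.15, adjusted p = 1.4e-04). For CACNB3 the GC-corrected difference was 0.37, under the limit for a call. CACNA1A (chromosome 19, 13317256 to 13743839), the P/Q-type pore of nerve endings, went the other way. It had 6.20 and 6.66 CPM in the MiaPaCa2 controls and 0.251 and 0.281 CPM (5 and 9 counts) in the PANC1 controls, a log2 difference of -4.49 (SE 0.30, adjusted p = 3.3e-08). CACNB1 differed by 0.03 (SE 0.22) and was not called.

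Among the pumps, 3 of 5 were called higher in PANC1 and 1 lower. ATP2A3, the SERCA3 pump known from blood and epithelial cells, measured 0.426 and 0.153 CPM in the MiaPaCa2 controls, 0.665 and 1.32 with gemcitabine, 0.411 and 0.331 with genistein and 1.70 and 1.12 with co-treatment. In PANC1 the same gene stood at 21.3 and 16.5 CPM in the controls, 21.1 and 17.9 with gemcitabine, 18.1 and 14.6 with genistein and 24.5 and 36.7 with co-treatment. No MiaPaCa2 library came near a PANC1 library, and the difference of the controls was 5.93 (SE 0.59, adjusted p = 1.4e-06), over only 7 and 2 counts in the MiaPaCa2 controls, and 5.14 after the GC correction. ATP2B1, a plasma membrane pump found in most cells, ranged from 7.13 to 11.6 CPM in MiaPaCa2, with 10.1 and 8.81 in the controls, 7.13 and 8.93 with gemcitabine, 10.0 and 11.6 with genistein and 8.80 and 8.17 with co-treatment. Its PANC1 values were 22.4 and 38.1 CPM in the controls, 31.0 and 36.8 with gemcitabine, 32.4 and 29.0 with genistein and 31.1 and 21.5 with co-treatment (log2 difference of the controls 1.66, SE 0.26, adjusted p = 9.8e-05). ATP2A2 was higher in PANC1 by 1.13 (SE 0.06), and the plasma membrane pump ATP2B4 was lower by 1.03 on the log2 scale (log2 difference -1.03, SE 0.08). ATP2C1 differed by 0.30 (SE 0.13, adjusted p = 0.0616) and was not called. The 2 plasma membrane pumps of the list therefore differed between the lines in opposite directions.

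**Figure D2:**
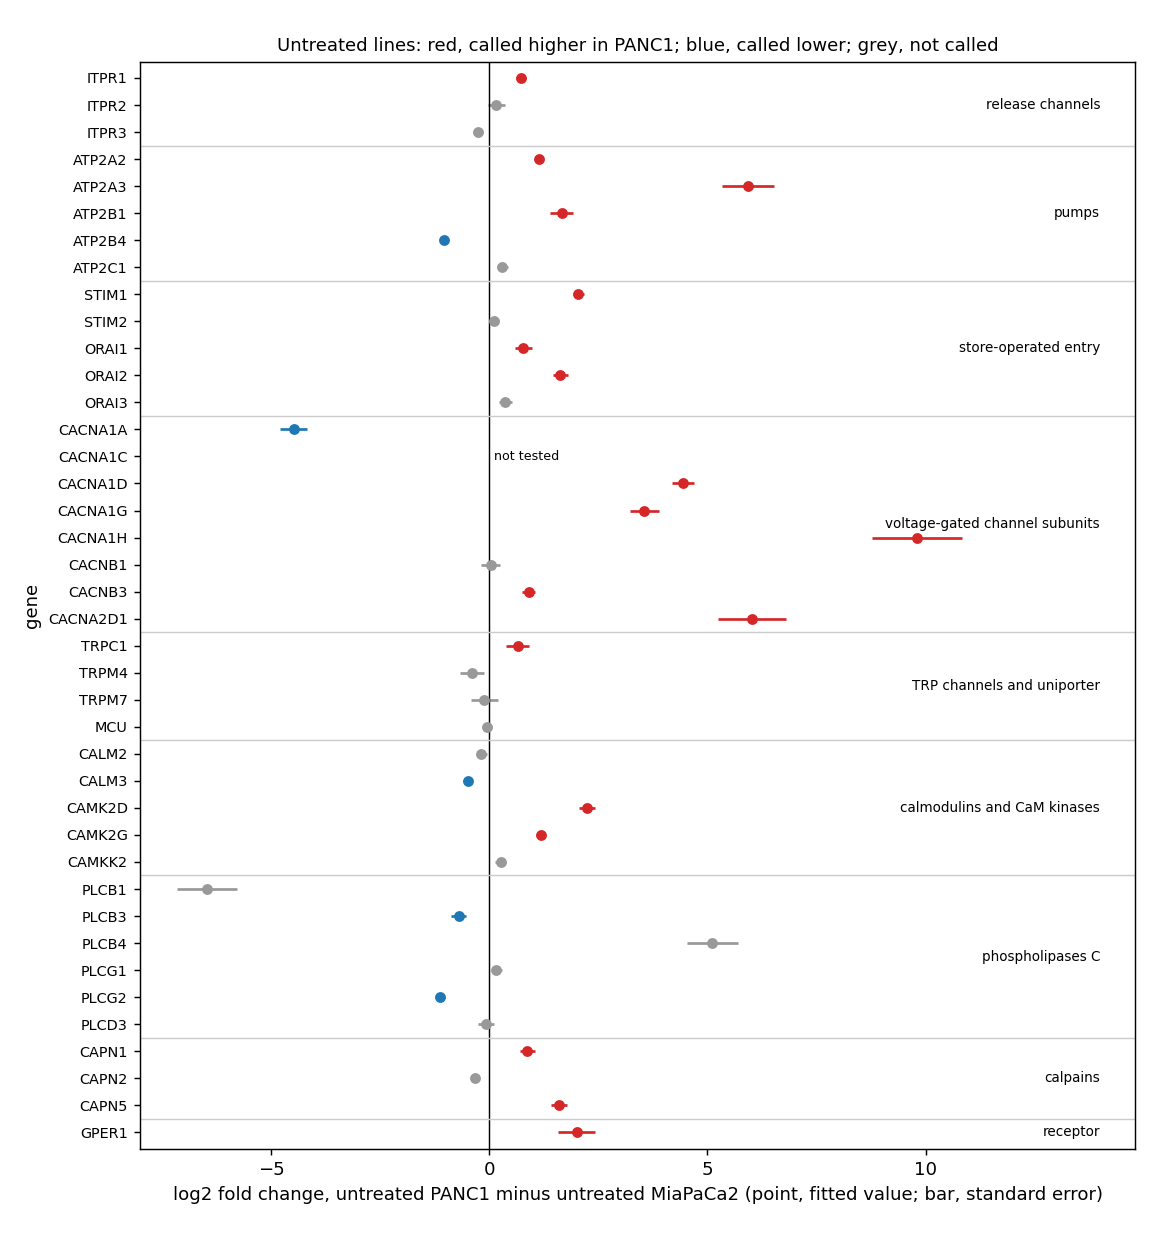
Log2 fold change of untreated PANC1 against untreated MiaPaCa2 for each gene (points, fitted values; bars, standard errors), grouped by role. The 18 red points were called higher in PANC1 and the 5 blue ones lower; the far points of CACNA1H, PLCB1 and PLCB4 rest on 3 counts or fewer per control library in the line where they are low.

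Of the 5 genes of store-operated entry, STIM1, ORAI1 and ORAI2 were called higher in PANC1, and STIM2 (log2 difference 0.11, SE 0.12) and ORAI3 (0.37, SE 0.16, adjusted p = 0.0526) were not called. STIM1, the main sensor of empty stores, measured 48.0 and 49.6 CPM in the MiaPaCa2 controls, 66.6 and 62.3 with gemcitabine, 68.5 and 57.0 with genistein and 79.3 and 80.9 with co-treatment. Against this, PANC1 held 223 and 182 CPM in the controls, 173 and 160 with gemcitabine, 222 and 227 with genistein and 177 and 207 with co-treatment, a log2 difference of 2.04 between the controls (SE 0.13, adjusted p = 1.5e-08). No MiaPaCa2 library reached the lowest PANC1 library. ORAI2, a pore that forms mixed channels with ORAI1, measured 49.1 and 47.4 CPM in the MiaPaCa2 controls, 90.2 and 84.7 with gemcitabine, 55.4 and 44.1 with genistein and 64.7 and 75.1 with co-treatment. Its PANC1 values were 175.6 and 129.7, 143.3 and 128.7, 110.9 and 106.2 and 104.7 and 139.3 CPM in the same order of groups (log2 difference of the controls 1.63, SE 0.17, adjusted p = 2.4e-06). ORAI1, the principal pore, differed by 0.78 (SE 0.20, adjusted p = 0.00433); that call was lost without replicate 1 of the MiaPaCa2 controls, and the GC-corrected difference was 0.34.

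Of the release channels on the list only ITPR1 was called, higher in untreated PANC1 by 0.73 (SE 0.12, adjusted p = 1.2e-04). ITPR2 differed by 0.16 (SE 0.20) and ITPR3 by -0.26 (SE 0.11, adjusted p = 0.0529). On FPKM ITPR1 was not called between the lines; FPKM of this long, many-isoform gene varied where counts did not, with 12.8 and 6.06 FPKM for 489 and 510 counts in the PANC1 co-treated libraries. TRPC1, a cation channel tied to receptor signalling, was the only called gene of its role, at 12.1 and 22.9 CPM in the PANC1 controls against 11.4 and 10.4 in MiaPaCa2 (log2 difference 0.65, SE 0.26, adjusted p = 0.0446). Its remaining values were 14.1 and 12.5 CPM with gemcitabine, 10.2 and 11.9 with genistein and 14.7 and 14.6 with co-treatment in MiaPaCa2, and 29.1 and 29.0, 20.4 and 20.7 and 29.6 and 20.8 in PANC1. The first PANC1 control lay within the range of the MiaPaCa2 libraries, and the call was lost when any of 10 of the 16 libraries was left out. TRPM4, TRPM7 and MCU were not called, with differences of -0.40 (SE 0.27), -0.12 (SE 0.31) and -0.06 (SE 0.11).

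Of the calmodulins and their kinases, CAMK2D and CAMK2G were called higher in PANC1 and CALM3 lower, while CALM2 (-0.18, SE 0.13) and CAMKK2 (0.26, SE 0.12) were not called. CAMK2D, a widely expressed subunit of calcium/calmodulin kinase II, measured 9.61 and 8.5 CPM in the MiaPaCa2 controls, 11.5 and 10.6 with gemcitabine, 8.55 and 10.6 with genistein and 12.1 and 10.1 with co-treatment. In PANC1 it measured 38.6 and 47.2, 43.1 and 47.9, 53.4 and 56.5 and 46.3 and 33.8 CPM in the same order, so every PANC1 library exceeded every MiaPaCa2 library (log2 difference of the controls 2.24, SE 0.19, adjusted p = 2.4e-07). CAMK2G, another subunit of that kinase, had 61.7 and 55.2 CPM in the MiaPaCa2 controls, 77.8 and 79.6 with gemcitabine, 57.4 and 58.1 with genistein and 70.6 and 79.3 with co-treatment. Its PANC1 levels were 142.0 and 125.3, 109.9 and 110.5, 132.5 and 138.7 and 111.8 and 118.5 CPM, and the controls differed by 1.18 (SE 0.10, adjusted p = 1.9e-07). CALM3 was lower in PANC1 by 0.50 on the log2 scale (log2 difference -0.50, SE 0.11, adjusted p = 0.00125), a call that was lost without replicate 2 of the PANC1 controls. Reads with several alignments had been removed before counting, and CALM2 has processed pseudogene copies, so its level may miss reads shared with them.

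Among the listed genes, phospholipases C were the role without a call higher in PANC1: PLCB3 and PLCG2 were called lower and the other 4 were not called. Outside the list, PLCH2 (log2 difference 8.55, SE 0.65), PLCE1 (5.09, SE 0.22), PLCB2 (3.80, SE 0.70) and PLCD4 (2.79, SE 0.51) were called higher in untreated PANC1. PLCH1 went the other way and was not called, with 91 and 72 counts in the MiaPaCa2 controls against 0 and 2. PLCG2 (chromosome 16, 81812884 to 81996290), the gamma isoform of B cells and myeloid cells that tyrosine kinases switch on, was lower in untreated PANC1 by 1.13 on the log2 scale (log2 difference -1.13, SE 0.12, adjusted p = 1.9e-06), at 11.2 and 10.5 CPM against 22.7 and 24.9. PLCB3, which G proteins switch on, measured 163 and 174 CPM in the MiaPaCa2 controls, 206 and 179 with gemcitabine, 185 and 171 with genistein and 170 and 199 with co-treatment, against 124 and 88.8, 96.5 and 74.4, 75.8 and 73.0 and 72.3 and 99.9 in PANC1. The difference of its controls was -0.70 (SE 0.17, adjusted p = 0.00293), which lost its call without replicate 2 of the PANC1 controls and was -1.38 (adjusted p = 9.9e-11) after the GC correction. PLCB1 and PLCB4 divided between the lines at levels too low for a call. PLCB1 had 47 and 41 counts in the MiaPaCa2 controls and 1 and 0 in the PANC1 controls, at least 24.6-fold higher in MiaPaCa2; PLCB4 had no count in any MiaPaCa2 library and 15 to 41 in each PANC1 library, at least 5.54-fold higher in PANC1 between the controls. PLCG1 and PLCD3 differed by 0.16 (SE 0.12) and -0.08 (SE 0.19).

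CAPN5, a calpain without the calmodulin-like domain, and CAPN1, the large subunit of µ-calpain, were called higher in PANC1, and CAPN2 was not called because its difference of -0.32 (SE 0.06) was under the fold limit. CAPN5 stood at 14.4 and 14.5 CPM in the MiaPaCa2 controls and 51.9 and 38.0 in the PANC1 controls (log2 difference 1.60, SE 0.18, adjusted p = 3.3e-06). CAPN1 measured 195 and 211 CPM in the MiaPaCa2 controls, 202 and 192 with gemcitabine, 198 and 173 with genistein and 159 and 198 with co-treatment, and 447 and 315, 260 and 217, 276 and 243 and 173 and 230 CPM in PANC1. The 2 PANC1 controls were apart by more than any other pair of CAPN1 replicates. The CAPN1 difference between the controls was 0.87 (SE 0.17, adjusted p = 6.0e-04) and 0.24 after the GC correction, under the limit for a call.

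The second question is what gemcitabine did in each line. For treatments a call required the same adjusted p and fold, and the treated libraries had to average more than 1 FPKM. In MiaPaCa2, 12 of the 36 genes tested were called against a background of 29.6% of all 16064 genes tested. Of these 12, 8 rose (background 15.0%) and 4 fell (background 14.6%), and the median log2 change was 0.21 against -0.01 over all genes. Phospholipases C held 3 of the 8 that rose, and no other role held more than 1. Cell type markers moved too. In MiaPaCa2 the 6 epithelial and ductal markers summed to between 1051 and 1216 FPKM in the controls and between 852 and 882 with gemcitabine, and VIM to between 3662 and 3704 and between 2522 and 2538. The 4 immune markers summed to between 14.4 and 19.8 FPKM in the controls and to at most 27.2 with gemcitabine, where both libraries lay above both controls, nearly all of it CD68 at 4 counts or fewer per library, while PTPRC and CD3E had none. The 3 endothelial markers summed to between 1.24 and 1.72 FPKM and between 0.973 and 1.11. In PANC1 the epithelial and ductal sum was between 2153 and 2561 FPKM in the controls and between 1576 and 1713 with gemcitabine, and VIM between 2633 and 2735 and between 1886 and 1967. The immune sum there was at most 130 FPKM in the controls and between 161 and 165 with gemcitabine, nearly all CD68 at 17 counts or fewer per library. The part of the markers in these results was not tested. In bulk samples a change in the make-up of the culture and a change in RNA per cell cannot be told apart.

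CACNA1G (chromosome 17, 48638076 to 48704835) rose most, by 2.43 on the log2 scale (SE 0.28, adjusted p = 5.5e-05). Its MiaPaCa2 libraries measured 1.76 and 1.30 CPM (29 and 17 counts) in the controls, 9.97 and 7.61 (165 and 121 counts) with gemcitabine, 0.822 and 1.37 with genistein and 10.6 and 10.5 with co-treatment. All 4 libraries that received gemcitabine lay above all 4 that did not. In PANC1 the gene began higher, at 21.2 and 16.3 CPM, and measured 11.4 and 10.2 with gemcitabine, 12.7 and 10.7 with genistein and 7.52 and 11.3 with co-treatment, and its gemcitabine change there of -0.73 (SE 0.21, adjusted p = 0.0700) was not called. The gap between the lines in this T-type channel transcript was thus narrower in the gemcitabine libraries than in the controls.

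CAPN5 (chromosome 11, 76778008 to 76837201) rose by 1.33 (SE 0.13, adjusted p = 1.8e-05), from 14.4 and 14.5 CPM to 37.1 and 38.6. ITPR1 (ENSG00000150995, chromosome 3, 4535029 to 4889190) rose by 0.96 (SE 0.14, adjusted p = 2.2e-04), from 12 and 11.1 CPM to 24.8 and 22, while ITPR2 and ITPR3 changed by -0.08 (SE 0.14) and -0.06 (SE 0.08). PLCG2 rose by 0.84 (SE 0.11, adjusted p = 1.1e-04), from 22.7 and 24.9 CPM to 45.1 and 42.9, and ORAI2 by 0.80 (SE 0.11, adjusted p = 2.2e-04). For each of these 4 genes both treated libraries lay above both controls. On FPKM in place of counts the gemcitabine calls of ITPR1, PLCG2 and ORAI2 were lost.

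PLCG1, the gamma isoform that growth factor receptors switch on, had 154 and 153 CPM in the MiaPaCa2 controls, 250 and 230 with gemcitabine, 200 and 183 with genistein and 255 and 278 with co-treatment. It rose by 0.59 (SE 0.08, adjusted p = 2.2e-04), and its PANC1 values were 194 and 154, 185 and 162, 192 and 180 and 169 and 197 CPM. PLCD3, a delta isoform, measured 92.2 and 98.3, 148.0 and 127.2, 120.1 and 107.3 and 150.9 and 176.8 CPM in the MiaPaCa2 groups and 112.9 and 73.6, 65.6 and 51.6, 66.5 and 60.6 and 47.2 and 60.6 CPM in PANC1. In MiaPaCa2 it rose by 0.48 (SE 0.11, adjusted p = 0.00379), a call lost without replicate 1 of the controls or of the treated libraries. PLCG1 and PLCD3 are rich in G and C (55.0% and 60.5% of their exons), and after the GC correction their changes were 0.36 and 0.11, neither called.

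Of the 4 genes that fell, the P/Q-type pore CACNA1A went from 6.20 and 6.66 CPM to 4.23 and 3.46 (log2 change -0.79, SE 0.20, adjusted p = 0.00725). TRPM7, a channel fused to a kinase that carries magnesium and calcium, went from 32.7 and 32.9 CPM to 17.2 and 20.1 (-0.87, SE 0.24, adjusted p = 0.0131). CALM2 went from 696 and 654 CPM to 427 and 514 (-0.58, SE 0.11, adjusted p = 0.00128), and the pump ATP2B4 from 331 and 312 to 238 and 238 (-0.49, SE 0.09, adjusted p = 0.0010). In each case both treated libraries lay below both controls. The call of CACNA1A was lost without replicate 2 of the gemcitabine libraries, and that of TRPM7 without any of the 4 libraries compared. With the GC correction CALM2 changed by -0.39, just under the limit, while TRPM7 (-0.57), CACNA1A (-0.96) and ATP2B4 (-0.53) kept their calls. On FPKM the calls of TRPM7, CACNA1A and ATP2B4 were lost in every setting, and that of CALM2 without a filter. DESeq2's Wald test did not call TRPM7 (adjusted p = 0.106) or CACNA1A (adjusted p = 0.0612), and ATP2B4 was not called with library size alone.

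GC content moved with this comparison. The exons of the 8 genes that rose had a median GC of 57.4% (43.9% to 61.2%) and those of the 4 that fell 43.9% (38.8% to 51.9%), and over the 36 genes GC and log2 change had a Spearman correlation of 0.511, which describes these genes of shared libraries and was given no test. After the GC correction 13 were called, 8 up and 5 down, against 28.7% of all genes: CACNA1G, CAPN5, ITPR1, ORAI2, GPER1 and PLCG2 still rose, TRPC1 and CAMK2D were added to them, and CAPN1 and CAPN2 were added to those that fell. Without scaling beyond library size 16 genes were called, 13 up and 3 down (4633 of all genes). DESeq2 called 10, 8 up and 2 down (4049 of all genes). The limma-voom test with TMM scaling had called 4747 of all genes. In the uncorrected test 6 more genes had an adjusted p of at most 0.05 but missed the limit on fold or FPKM. These were STIM1 (0.35, SE 0.11), CAMK2G (0.38, SE 0.10) and CAPN2 (-0.38, SE 0.07), with small folds, and ATP2A3 (1.61, SE 0.57), CACNA1D (1.15, SE 0.35) and PLCB1 (-1.47, SE 0.37), with a mean FPKM of 1 or less.

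In PANC1, 2 of the 37 genes tested were called with gemcitabine, both lower, against 7.52% of all 16909 genes. CACNA1D went from 21.4 and 22.6 CPM in the controls to 13.9 and 13.8 (log2 change -0.63, SE 0.13, adjusted p = 0.0309), with 18.3 and 19.0 with genistein and 12.5 and 11.5 with co-treatment. Its MiaPaCa2 values, 0.851 and 1.15, 2.78 and 1.89, 0.493 and 0.850 and 2.41 and 2.04 CPM in the same order, were higher in both gemcitabine libraries than in both controls. CALM3 went from 420 and 342 CPM to 279 and 265 in PANC1 (-0.43, SE 0.10, adjusted p = 0.0358), with 340 and 339 with genistein and 248 and 278 with co-treatment. In MiaPaCa2 its values were 518 and 551, 564 and 623, 647 and 566 and 612 and 708 CPM. Both PANC1 calls depended on single libraries: leaving out 1 library at a time, 0 to 7 genes were called (0 without either gemcitabine or either genistein library, 1 without replicate 1 of the controls, 7 without its replicate 2 and 5 without either co-treated library), and 7 were called after the GC correction, against 18.6% of all genes. The GC-corrected calls were TRPC1, higher, and CACNA1G, CAPN1, ATP2B4, CACNA1D, PLCD3 and CACNA1H, lower. CALM3, at -0.37 after that correction, was not among them. Scaling by library size alone moved the median change of all genes from 0.03 to 0.14, and no gene of the 40 was then called.

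**Figure D3:**
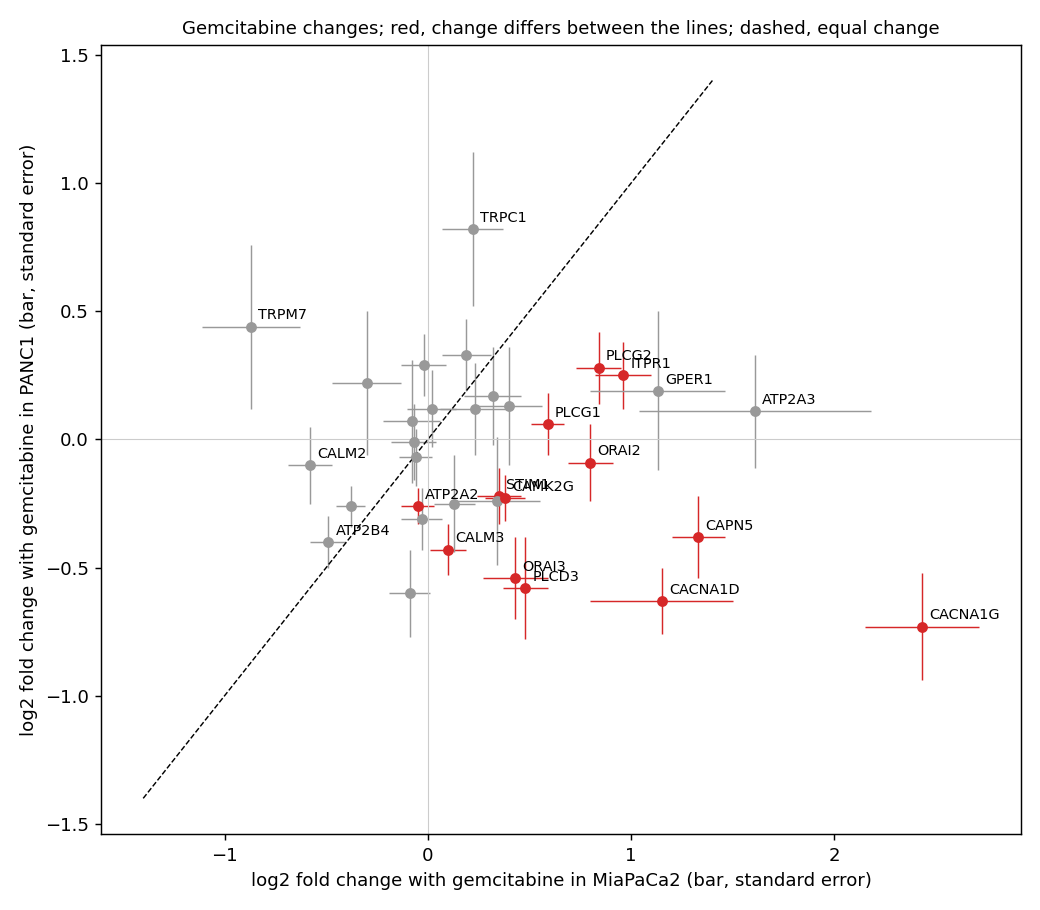
Log2 fold change with gemcitabine in MiaPaCa2 (horizontal) and PANC1 (vertical) for the 34 genes tested in both lines (points, fitted values; bars, standard errors). The 13 red genes, whose change differed between the lines, all lie below the dashed line of equal change, with CACNA1G farthest from it.

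Whether the lines differed in their gemcitabine change was tested directly, with all 16 libraries in the model and the adjusted p alone as the rule. Of 39 genes, 13 differed, and all 13 changed less, or downward, in PANC1. Over all 17863 genes tested 15.3% differed, 9.06% lower and 6.21% higher in PANC1. The largest differences were those of CACNA1G (-3.25, SE 0.40, adjusted p = 3.6e-04), CACNA1D (-1.87, SE 0.33, adjusted p = 0.00348) and CAPN5 (-1.81, SE 0.24, adjusted p = 6.3e-04). Among the rest were the phospholipases PLCD3 (-1.16, SE 0.27), PLCG2 (-0.66, SE 0.16) and PLCG1 (-0.63, SE 0.17), the release channel ITPR1 (-0.81, SE 0.16), and for store-operated entry ORAI3 (-1.06, SE 0.22), ORAI2 (-1.0, SE 0.24) and STIM1 (-0.67, SE 0.18). CAMK2G (-0.70, SE 0.14), CALM3 (-0.62, SE 0.16) and ATP2A2 (-0.30, SE 0.09) completed the 13. Reads of ORAI3 are uncertain, since 52.9% of its exon length lies under another annotated gene on the same strand, and for PLCG2 that share is 22.6%.

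ORAI3, a pore present in mammals, had 7.42 and 9.19 CPM in the MiaPaCa2 controls and 10.5 and 12.5 with gemcitabine, and 11.2 and 10.1 in the PANC1 controls and 6.80 and 7.33 with gemcitabine. ATP2A2 measured 346 and 322 CPM in the MiaPaCa2 controls and 333 and 337 with gemcitabine, and went from 739 and 722 to 582 and 603 in PANC1. Its difference had the highest adjusted p of the 13 (0.0422) and was not called by edgeR's quasi-likelihood test. These counts depended on single libraries: 5 genes differed without replicate 1 of the MiaPaCa2 controls, 7 without replicate 1 of the MiaPaCa2 gemcitabine libraries, 8 without replicate 1 of the PANC1 controls and 6 without replicate 2 of the PANC1 gemcitabine libraries. GC content again moved with the result (Spearman -0.595 over the 39 genes), and after the GC correction 16 differed, 13 lower and 3 higher in PANC1, against 26.5% of all genes. ORAI3 and CALM3 then no longer differed, ATP2C1 and CAMK2D joined those lower in PANC1, and ITPR3, CACNA1A and CACNB3 were higher. On FPKM 3 or 4 genes differed, and for ITPR1 and PLCG2 the difference was near 0 (0.05 on log2(FPKM + 1)).

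The third question concerns genistein. In MiaPaCa2, 4 of 36 genes were called with genistein alone, against 8.31% of all genes. ITPR1 rose by 0.66 (SE 0.14, adjusted p = 0.0128), to 18.2 and 18.7 CPM, PLCG2 by 0.46 (SE 0.11, adjusted p = 0.0221), to 34.4 and 31.8, and CAPN5 by 0.94 (SE 0.14, adjusted p = 0.00194), to 31.1 and 25.7. CACNA1A fell by 1.53 on the log2 scale (log2 change -1.53, SE 0.22, adjusted p = 0.00207), from 6.20 and 6.66 CPM to 2.14 and 2.27 (26 and 48 counts). Both treated libraries lay beyond both controls for all 4 genes. Without either replicate of the MiaPaCa2 controls 2 genes were called; the ITPR1 call was lost without either control or replicate 2 of genistein, and that of PLCG2 without any of the 4 libraries. All 4 kept their calls with the GC correction, which called 11.2% of all genes and added the pump ATP2B1. None did on FPKM, where 90 to 248 of all genes were called against 1335 on counts. The call of PLCG2 thus rests on counts, and its FPKM change was -0.10. Cell type markers moved here as well. With genistein the MiaPaCa2 sums were between 1377 and 1438 FPKM for the epithelial and ductal list and between 3751 and 3875 for VIM. The immune sum was between 34.8 and 36.0, again nearly all CD68 at 4 counts or fewer per library. The endothelial sum, nearly all CDH5, was between 0.444 and 0.591. None of these sums overlapped the controls, and the part of the markers in these changes was not tested.

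Because ITPR1, PLCG2 and CACNA1A were called with genistein, the 250 bases before their RefSeq start are shown here (GRCh38.p14, from a table that held 31 of the 40 genes; CAPN5 is not among them). Capitals mark GGGCGG on either strand, the GC box that Sp1 binds.
ITPR1, chr3:4493098-4493347, + strand: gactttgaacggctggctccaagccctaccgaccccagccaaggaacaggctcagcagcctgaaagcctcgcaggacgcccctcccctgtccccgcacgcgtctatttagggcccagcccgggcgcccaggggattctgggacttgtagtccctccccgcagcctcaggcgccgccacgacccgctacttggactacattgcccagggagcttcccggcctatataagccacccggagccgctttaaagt
PLCG2, chr16:81738791-81739040, + strand: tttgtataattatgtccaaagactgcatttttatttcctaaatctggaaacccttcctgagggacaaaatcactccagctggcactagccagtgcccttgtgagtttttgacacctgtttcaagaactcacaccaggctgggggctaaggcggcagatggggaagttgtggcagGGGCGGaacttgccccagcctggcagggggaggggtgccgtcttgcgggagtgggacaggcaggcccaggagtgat
CACNA1A, chr19:13506480-13506729, - strand: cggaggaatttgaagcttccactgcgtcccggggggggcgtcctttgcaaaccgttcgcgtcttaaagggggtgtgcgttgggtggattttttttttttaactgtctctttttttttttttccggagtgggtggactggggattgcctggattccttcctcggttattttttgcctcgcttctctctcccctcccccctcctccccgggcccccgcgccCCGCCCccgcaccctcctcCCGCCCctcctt
The window of ITPR1 held no such box, that of PLCG2 1 and that of CACNA1A 2. Of the 47 windows of the matched genes 76.6% held a GC box, against 42.6% of the 35116 windows in the table. The palindromic estrogen response element, searched because genistein binds estrogen receptors, was in none of the 47 windows and in 0.0399% of all windows. An element this rare would usually be absent from 47 windows of any genes, so its absence says nothing about these. The AP-1 site TGANTCA, the E-box CACGTG and the exact TATA string TATAAA were in 4.26%, 4.26% and 2.13% of the 47 windows, against 6.57%, 6.34% and 10.7% of all. None of these strings was in the 3 windows shown. Variants were not searched, so tatataag near the end of the ITPR1 window was not counted, and a TATA box there is not excluded.

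In PANC1 no gene of the 37 was called with genistein alone. Only 0.0591% of all genes were called in that comparison. At an unadjusted p under 0.05 there were 8 of the 37, against 19.2% of all genes. The quasi-likelihood test of edgeR called 0 (12 of all genes) and DESeq2 called 2 (739 of all genes). ITPR1 had 27.1 and 26.3 CPM with genistein against 19.0 and 19.5 in the controls (log2 change 0.51, SE 0.13, adjusted p = 0.131), and PLCG2 17.6 and 15.2 against 11.2 and 10.5 (0.63, SE 0.14, adjusted p = 0.119). Both treated libraries lay above both controls for these 2 genes, as in MiaPaCa2. With the GC correction PLCG2 and CAPN5 were called higher with genistein in PANC1, against 7.47% of all genes. No gene's genistein change differed between the lines (0 of 39, background 0.0336%, and 0 by edgeR and by DESeq2). At an unadjusted p under 0.05 there were 4, against 11.5% of all genes. For ITPR1 the difference was -0.20 (SE 0.17), for PLCG2 0.12 (SE 0.17) and for CAPN5 -0.66 (SE 0.24, adjusted p = 0.340), so a call in MiaPaCa2 alone does not show that the lines respond differently.

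Genistein added to gemcitabine called 3 of 36 genes in MiaPaCa2, all higher than with gemcitabine alone, against a background of 5.88%. They were again ITPR1 (0.64, SE 0.12, adjusted p = 0.00705), PLCG2 (0.56, SE 0.10, adjusted p = 0.00559) and CAPN5 (0.68, SE 0.11, adjusted p = 0.00375). The 3 comparisons share libraries, since the controls serve both single drugs and the gemcitabine libraries serve as the reference here, so the 3 sets of calls are not independent. ITPR1 reached 38.2 and 35.1 CPM in the co-treated MiaPaCa2 libraries, against 12 and 11.1 in the controls. PLCG2 reached 64.0 and 66.0 CPM, against 22.7 and 24.9, and CAPN5 57.0 and 64.7, against 14.4 and 14.5. For all 3 genes the co-treated libraries were the highest of the 8, the controls the lowest, and the libraries of either single drug lay between them without overlap. Without either replicate of the gemcitabine libraries no gene was called, and without replicate 1 of co-treatment 5 were, as with the GC correction, which added CACNA1A and ORAI2 as lower. Over all genes the GC correction called 9.83% in this comparison. On FPKM none of the 36 was called (of all genes 1 with log2(FPKM + 0.1) and 51 without a filter, against 945 on counts). PLCG2 had 30.8 and 30.9 FPKM with co-treatment against 15.4 and 10.1 with gemcitabine, and ITPR1 14.6 and 11.9 against 7.08 and 4.67. In the co-treated MiaPaCa2 libraries the epithelial and ductal sum was between 908 and 998 FPKM and VIM between 2336 and 2454. The immune sum was between 32.2 and 37.8, nearly all CD68 at 4 counts or fewer per library. The endothelial sum, nearly all CDH5, was between 0.275 and 0.556. Each of these lay apart from the gemcitabine libraries, and the part of the markers was not tested.

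**Figure D4:**
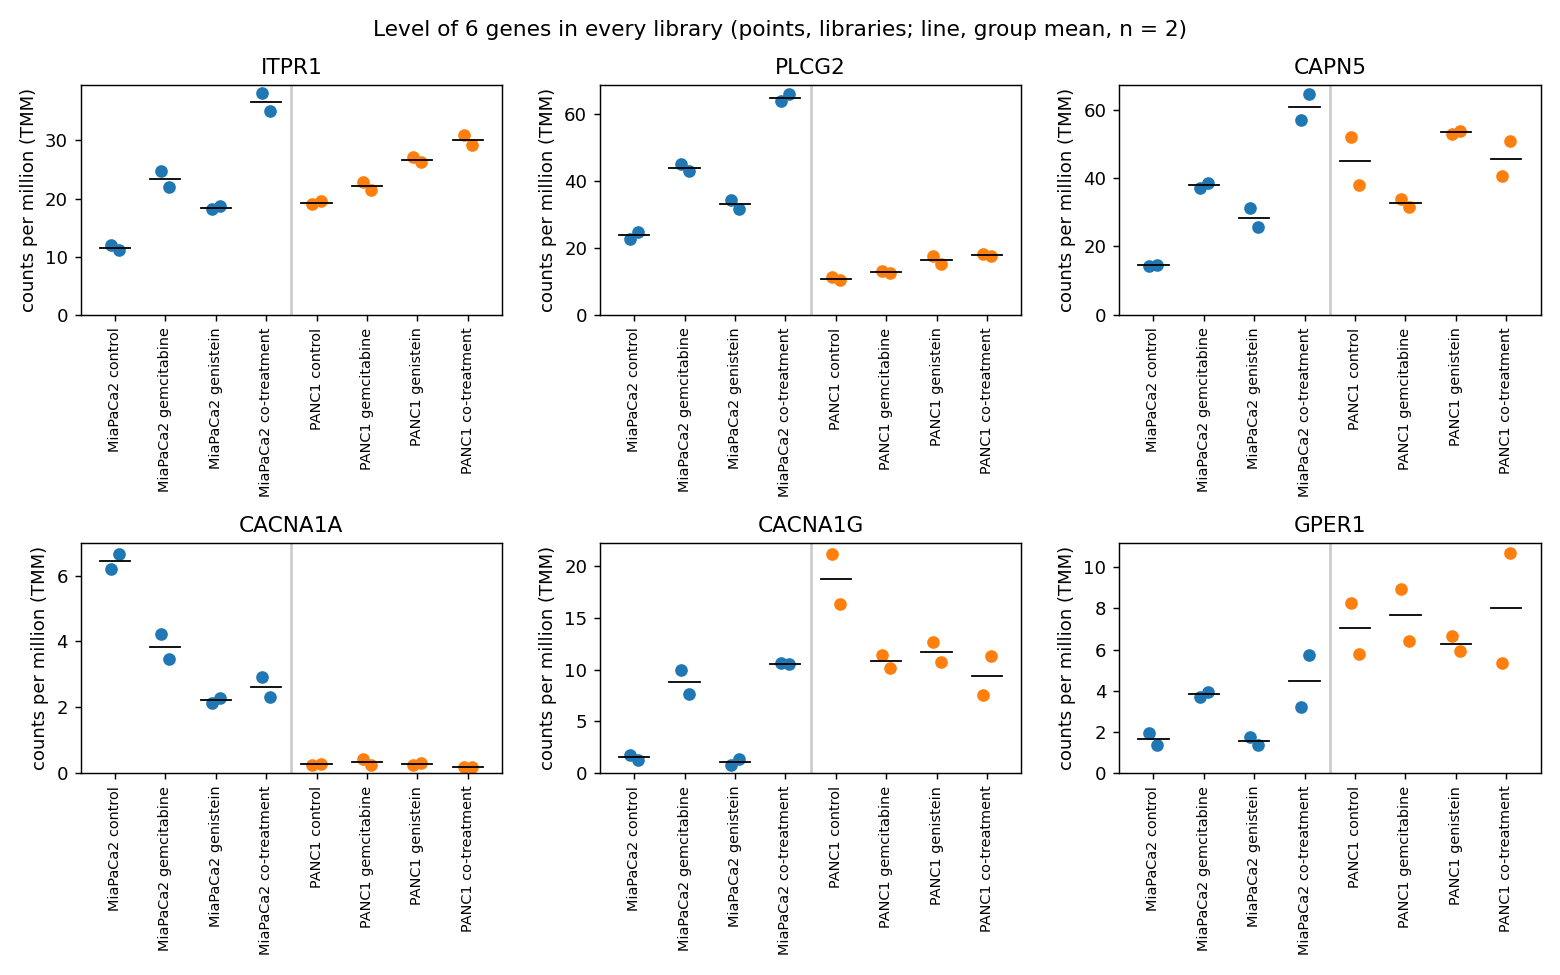
CPM (TMM-scaled) of ITPR1, PLCG2, CAPN5, CACNA1A, CACNA1G and GPER1 in each library (points; blue, MiaPaCa2; orange, PANC1), with the mean of each group of 2 (lines). ITPR1, PLCG2 and CAPN5 climb in MiaPaCa2 from the controls to co-treatment, CACNA1G follows gemcitabine, and CACNA1A in MiaPaCa2 is lowest where genistein was given.

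The same addition in PANC1 called none of 37 genes (background 0.0177%, 0 by edgeR and 0 by DESeq2). At an unadjusted p under 0.05 there were 7, against 13.4% of all genes. ITPR1 measured 30.9 and 29.2 CPM with co-treatment against 22.9 and 21.5 with gemcitabine (log2 change 0.41, SE 0.13, adjusted p = 0.243). PLCG2 measured 18.1 and 17.5 against 13.1 and 12.4 (0.46, SE 0.14, adjusted p = 0.239). CAPN5 measured 40.7 and 50.7 CPM against 33.8 and 31.4 (0.46, SE 0.17, adjusted p = 0.307), with 52.9 and 53.8 under genistein alone. With the GC correction ITPR1 and ATP2A3 were called higher and CACNA2D1 lower, against 7.63% of all genes. The change on adding genistein differed between the lines for none of 39 genes (background 0.106%, 0 by edgeR and 1 by DESeq2). At an unadjusted p under 0.05 there was 1, against 6.99% of all genes. In both lines, then, ITPR1 and PLCG2 stood higher in both libraries that received genistein than in their matched reference, and only the MiaPaCa2 values passed the test.

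A gemcitabine by genistein interaction was called for none of the 36 genes in MiaPaCa2 (background 0.0249%) or the 37 in PANC1 (background 0%). By edgeR and DESeq2 none was called either. At an unadjusted p under 0.05 there were 2 in each line, against 8.38% of all genes in MiaPaCa2 and 4.92% in PANC1. On the log2 scale the genistein change of ITPR1 in MiaPaCa2 was 0.66 without gemcitabine and 0.64 with it, that of PLCG2 0.46 and 0.56, and that of CAPN5 0.94 and 0.68. CACNA1A, with 2.91 and 2.31 CPM under co-treatment, changed by -1.53 and -0.57.

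GPER1 (chromosome 7, 1121844 to 1133451) encodes a G protein-coupled receptor that answers estrogens, genistein among its ligands, by raising calcium. It was a low transcript in MiaPaCa2, at 1.95 and 1.38 CPM (32 and 18 counts) in the controls, 3.69 and 3.96 (61 and 63 counts) with gemcitabine, 1.73 and 1.37 with genistein and 3.19 and 5.73 with co-treatment. In PANC1 it measured 8.27 and 5.79 CPM in the controls, 8.96 and 6.43 with gemcitabine, 6.64 and 5.94 with genistein and 5.37 and 10.7 with co-treatment. Untreated PANC1 exceeded untreated MiaPaCa2 by 2.0 (SE 0.43, adjusted p = 0.00119), and by 1.33 after the GC correction. With gemcitabine it rose in MiaPaCa2 by 1.13 (SE 0.33, adjusted p = 0.0162), a call that was lost without any of the 4 libraries compared. Genistein alone changed it by -0.16 (SE 0.38) in MiaPaCa2 and -0.08 (SE 0.34) in PANC1, and its gemcitabine change did not pass the test of a difference between the lines (-1.03, SE 0.55, adjusted p = 0.220). The nuclear estrogen receptor ESR1 had no count in any library, and ESR2 had at most 18 counts in a MiaPaCa2 library and 2 in a PANC1 library.

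Other genes of calcium handling give the setting. Of 127 further genes found in the table, 89 were tested between the untreated lines and 53 called (59.6%, against 52.2% of all genes), 36 higher in PANC1 and 17 lower. Among them the ryanodine receptors, the other family of release channels, split by line: RYR1 had 3125 and 3894 counts in the PANC1 controls and 2 and 1 in MiaPaCa2, whereas RYR2 had 58 and 48 counts in the MiaPaCa2 controls and none in the PANC1 controls. With gemcitabine 21 of 73 were called in MiaPaCa2 (28.8%, against 29.6% of all genes), 15 up and 6 down, and 9 of 85 in PANC1 (10.6%, against 7.52%), 3 up and 6 down. TRPV4, an osmosensitive cation channel, rose in both lines, by 1.84 (SE 0.15) in MiaPaCa2 and 1.92 (SE 0.29) in PANC1, as did CAMK2N1, an inhibitor of calcium/calmodulin kinase II (1.66, SE 0.16, and 0.71, SE 0.14). The calmodulin kinase kinase CAMKK1 (-0.93, SE 0.15) and the calpain CAPN7 (-0.70, SE 0.16) fell most in MiaPaCa2, and the phospholipase PLCH2 (-1.71, SE 0.22) and the calcineurin subunit PPP3CB (-0.71, SE 0.16) in PANC1. Genistein alone called 6 of 73 in MiaPaCa2 (8.22%, against 8.31%), all up, led by CAMK2N1 (0.60, SE 0.17) and the mitochondrial exchanger SLC8B1 (0.58, SE 0.13), and 0 of 85 in PANC1. Its addition to gemcitabine called 5 of 73 in MiaPaCa2 (6.85%, against 5.88%), all up, among them CAMK2N2 (0.69, SE 0.16), and 0 of 85 in PANC1. The gemcitabine change differed between the lines for 11 of 89 (12.4%, against 15.3%), 9 of them lower in PANC1. These shares lay near those of all genes.

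**Figure D5:**
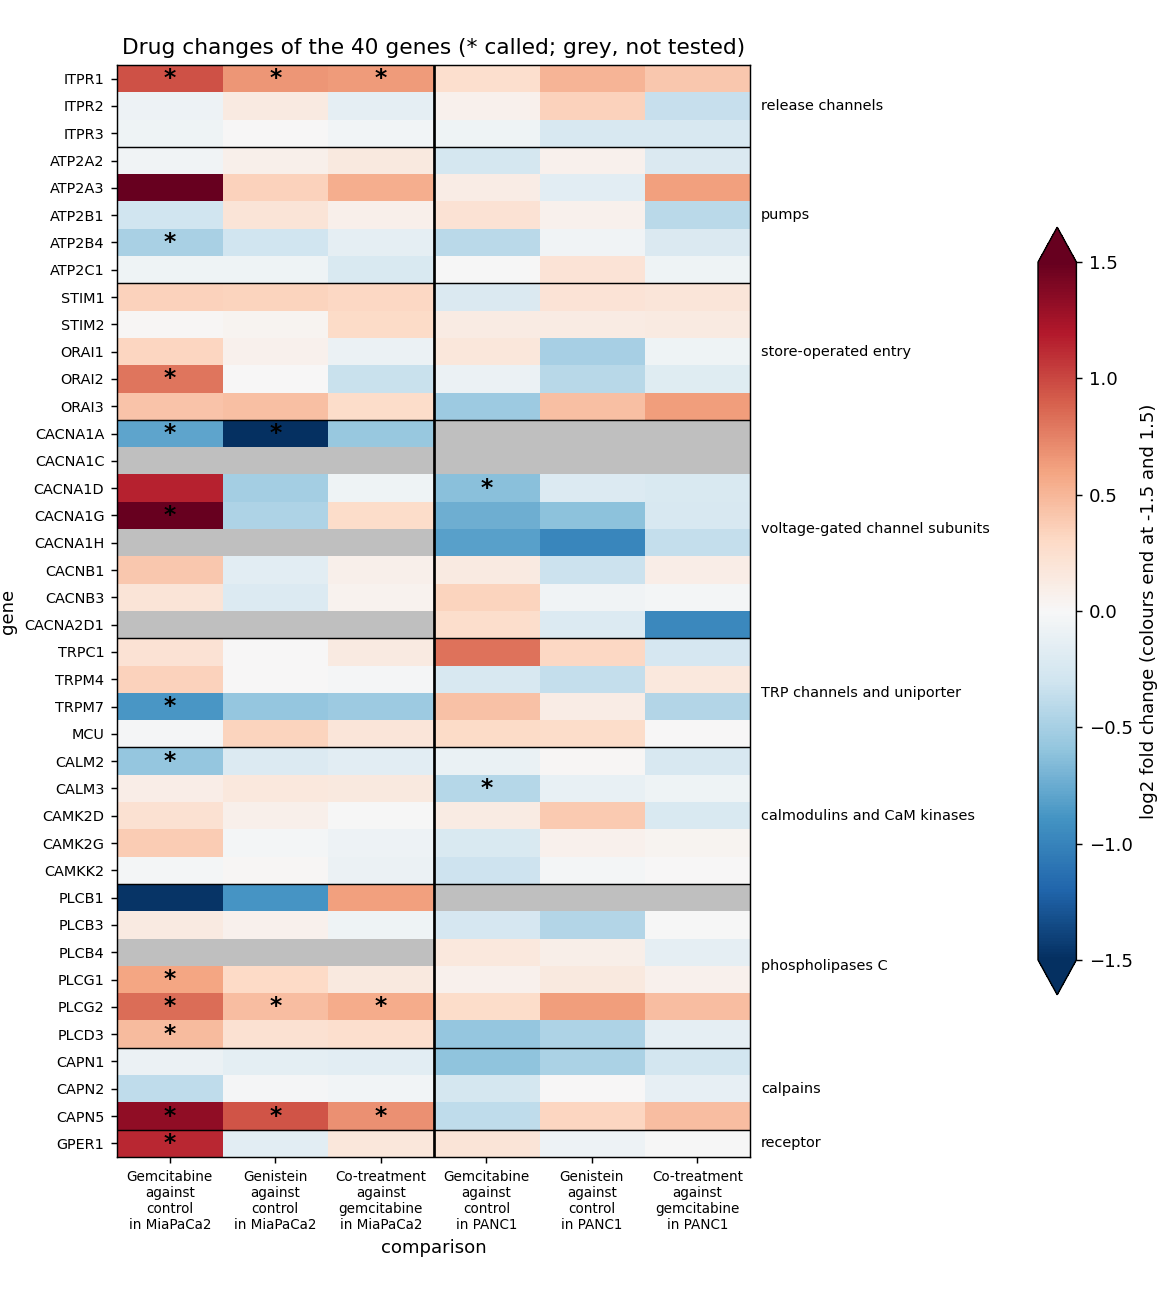
Log2 fold change of each of the 40 genes (rows, grouped by role) in the 6 drug comparisons (columns; 3 per line), with stars on called changes and grey where a gene was not tested. Stars stand on 12, 4 and 3 genes in the MiaPaCa2 columns and on 2, 0 and 0 in the PANC1 columns, and ITPR1, PLCG2 and CAPN5 carry a star in all 3 MiaPaCa2 columns.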

How the data were processed

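Poly-A RNA of 16 cultures was sequenced as short single reads. Per the methods and the submitters' notes, the authors aligned reads with TopHat2 2.0.4 (GRCh37), removed duplicates and reads with several alignments with Picard 1.29 and SAMtools, and deposited HTSeq 0.6.1 counts per gene, not normalized, and Cufflinks 2.1.1 FPKM, normalized for length and depth. The annotation release and strand setting are not given in the sources used here, so reads of genes that overlap on opposite strands may not be told apart. Isoform FPKM were not used, and 242 FPKM rows shared an identifier.

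Counts were fitted with limma 3.58.1 (voom) after filterByExpr and TMM scaling from edgeR 4.0.16 in R 4.3.3, with 8 libraries per line, or 16 for comparisons of the lines, and Benjamini-Hochberg adjustment over all genes tested. p-values measure the spread between these cultures of each line. Tests were two-sided. DESeq2 1.42.0 and edgeR's quasi-likelihood test were alternatives, as were library size alone, no count filter, log2(FPKM + 1) and log2(FPKM + 0.1), the 4 compared libraries alone, a replicate block, leaving out each library, and a loess correction (span 0.3) for exon GC content, which 98.5% of tested genes had (GENCODE release 44 on GRCh37). The code was tested on simulated data. Floors of 3 counts cover counting error only.

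The 40 genes, the 127 other calcium genes and the markers were chosen with earlier results of these data known. Values in all libraries are given for the largest called differences of each role between the untreated lines, as limits where MiaPaCa2 held few counts. They are also given for genes called with gemcitabine in a single line whose change differed between the lines, and for ITPR1 and GPER1. Other genes are given by values of some libraries or by test values.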

Additional observations from a re-analysis of the deposited data

Results flagged for a closer look

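Of the 40 calcium genes, 13 differed between MiaPaCa2 and PANC1 in their change with gemcitabine, by the test of that difference in the limma-voom model of all 16 libraries. The differences (log2, PANC1 minus MiaPaCa2) were -3.25 for CACNA1G, -1.87 for CACNA1D, -1.81 for CAPN5, -1.16 for PLCD3, -1.06 for ORAI3, -1.0 for ORAI2, -0.81 for ITPR1, -0.70 for CAMK2G, -0.67 for STIM1, -0.66 for PLCG2, -0.63 for PLCG1, -0.62 for CALM3 and -0.30 for ATP2A2. With the correction for GC content ORAI3 (-0.64, adjusted p = 0.0633) and CALM3 (-0.22, adjusted p = 0.0909) no longer differed. Only CACNA1G and CAPN5 kept the call in all 12 other settings, and ATP2A2 kept it in 5. On FPKM the differences of ITPR1 and PLCG2 were reversed. CACNA1D had few counts in MiaPaCa2, 14 and 15 in the controls and 46 and 30 with gemcitabine.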

How the results depend on the processing

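The counts of called genes depended on the processing most where few were called. Over all genes, gemcitabine in PANC1 gave 1272 calls in the limma-voom test with TMM scaling, 1694 with DESeq2 and 3107 with the GC correction. Library size alone gave 1484 there and no count filter 933. With gemcitabine in PANC1 (2 called), DESeq2 called 7, the GC correction 7, no count filter 1, and library size alone, all 3 FPKM settings and the 4 compared libraries alone 0; leaving out 1 library gave 0 to 7. On FPKM, 3 genes were called with gemcitabine in MiaPaCa2 without a filter, 0 with genistein and 0 on adding genistein to gemcitabine (of all genes 1829, 90 to 248, and 1 or 51 in 2 of the settings, against 4747, 1335 and 945 on counts), and 4, 4 and 3 differed between the lines with gemcitabine. Leaving out 1 library gave 2 to 5 for genistein in MiaPaCa2, 0 to 5 for its addition to gemcitabine there, and 5 to 19 for the line difference with gemcitabine. With genistein in PANC1, DESeq2 called 2, the GC correction 2 and the 4 libraries alone 1 (739, 1245 and 362 of all genes). On its addition to gemcitabine, the GC correction called 5 in MiaPaCa2 and 3 in PANC1 (9.83% and 7.63% of all genes). For the line difference in that change DESeq2 and the GC correction called 1 each (1.82% of all genes with the GC correction). FPKM reversed PLCG2 with genistein in MiaPaCa2 (-0.10 in 3 settings) and the line differences with gemcitabine of ITPR1 (0.05 in 3 settings) and PLCG2 (0.05, 0.09 and 0.05); the cause was not tested. Of 728 values of single called genes under other settings, 605 kept the call and 9 reversed, the rest losing it in the same direction; of 744 with 1 library left out, 657 kept it and 87 lost it.

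Replicate numbers did not pair the libraries: deviations of same-numbered libraries correlated between -0.462 and 0.243. With the replicate block 22 genes were called between the untreated lines, 12 with gemcitabine in MiaPaCa2, 0 in PANC1, 4 with genistein in MiaPaCa2, 3 on its addition to gemcitabine there, and 12 differed between the lines with gemcitabine; the remaining comparisons had 0. The GC correction with the block gave 7 for gemcitabine in PANC1 (2872 of all genes) and 2 for genistein in PANC1 (832 of all genes). It gave 5 and 1 for the addition of genistein to gemcitabine in MiaPaCa2 and PANC1, and 1 for the line difference in that change. Crossing the numbers, a choice made after seeing the data, gave 6 for the addition in PANC1 (1470 of all genes, against 3) and 23 between the untreated lines. With 2 libraries per group, genes with few counts, such as GPER1 in MiaPaCa2, limit what could be detected.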
